A study of Mus musculus with 8 samples.

Results

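The 28 genes described here carry glucose into the cell, break it down to pyruvate and lactate, or store it as glycogen. They were chosen by gene symbol alone (hexokinases, phosphofructokinases, aldolases and the later enzymes of glycolysis, lactate and glycerol phosphate dehydrogenases, hexose carriers of the Slc2a family, and genes of glycogen synthesis and breakdown), out of 6106 genes with a symbol in the deposited table. The 28 genes were read from 29 rows, since Pgam2 had 2 probes. The 2 rows that carry a symbol of the rule together with the symbol of another gene were left out, and Pygo2, a Wnt pathway gene, entered by the letters of its name and is counted with the rest. Hearts came from C57BL/6 mice, an inbred strain, female and male, at 2 and 8 months of age, with no treatment named in the labels. Each pool held RNA of 6 whole hearts of 1 sex and age, and each two-colour array compared the female with the male pool of 1 age. The 4 arrays of an age are therefore technical repeats of 1 pair of pools; the odd-numbered replicates had the female pool in the dye Cy3, the even-numbered ones in Cy5. A pool stands for its hearts together, so the spread between animals was not measured.

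Glucose enters heart muscle through carriers in the cell membrane, mainly the insulin-responsive Slc2a4 and the constitutive Slc2a1. Hexokinase traps it in the cell, phosphofructokinase commits it to glycolysis, and the later enzymes convert it to pyruvate, which is burned in mitochondria or turned to lactate. Adult heart muscle draws most of its energy from fatty acids, and glucose use and the glycogen store change with insulin, workload and oxygen supply.

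Values are log2 ratios of the female over the male pool, so that 1 is a doubling in females and a negative value is a higher signal in males. For each age both dye orientations were averaged with equal weight, and the SD beside a mean is that of the 4 arrays. Replicates 1 and 2 at 8 months stand apart: their ratios drifted with position on the array, and the running median of all rows had an SD of 0.51 and 0.82 (log2) against 0.035 to 0.074 on the other 6 arrays. For the genes that the results turn on, the 8-month value from replicates 3 and 4 is therefore given as well. The table holds ratios and no levels, so neither the level of a gene nor the presence of a tissue's defining markers could be checked; 8 of the 10 listed heart muscle markers had values, with ratios of -0.28 to 0.09 at 2 months.

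No glucose gene passed the test of the 2 sexes over both ages, and 3 of 26 stood out at 2 months alone: Gys2, a glycogen synthase isoform known from liver, Gpd2, the mitochondrial glycerol-3-phosphate dehydrogenase, and Pfkfb3, a kinase and phosphatase that sets the level of a phosphofructokinase activator. All 3 were higher in the female pool, by 2.98-fold, 1.94-fold and 1.5-fold. On all 4 arrays at 8 months 0 of 26 stood out. On replicates 3 and 4 alone Pfkfb4, a relative of Pfkfb3, did, higher in the female pool by 1.75-fold. That is 1 of 26, against 3.33% of all rows in either direction. Of 22 listed genes of the glycolytic chain 9 were tested, without Hk2, Pfkm, Gapdh and Pkm. These 9 were at -0.24 to 0.12 at 2 months and at -0.75 to 0.19 at 8 months. On replicates 3 and 4 they were at -0.54 to 0.27, and 0 of the 9 met the 1.5-fold rule at either age.

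The fit over both ages used limma on the 2 pairs of pools (n = 2), 1 per age. A difference between the ages therefore counts as spread in this fit, and a gene that differs at 1 age only has a large SE. Enough values to enter it were present for 26 of the 28 genes. Of these, 0 were called at an adjusted p below 0.05, against 0.0896% of all 7812 rows (7 rows); the lowest adjusted p among the 26 was 0.43 by limma. An unadjusted p below 0.05 was reached by 1 of the 26, Pfkfb4, and by 811 of all 7812 rows. At 1 age there is 1 pool per sex and no test; there a gene was counted when its mean reached 1.5-fold (0.585 on the log2 scale) with 1 sign on all arrays. By this size rule 3 of 26 were higher at 2 months, against 2.41% of all rows, and 0 were lower, against 1.77% (4.17% in either direction). At 8 months 0 of 26 met it, against 1.68% of all rows higher and 1.31% lower (2.98% together). On replicates 3 and 4 alone 1 was higher, against 2.08%, and 0 were lower, against 1.26% (3.33% together). All 4 arrays at 2 months had 1 sign for 10 of 26 genes, 8 of them positive, against 35.8% of all rows, and replicates 3 and 4 had 1 sign for 13, against 48.1%. The mean was positive for 15 of 26 at 2 months, 9 at 8 months and 14 on replicates 3 and 4, beside 46.4%, 45% and 49.6% of all rows. The median of the 26 was 0.025 at 2 months, -0.11 at 8 months and 0.0070 on replicates 3 and 4, beside -0.016, -0.032 and -0.0015 over all rows. Over both ages it was -0.048, beside -0.019 over all rows. The median distance from 0 at 2 months was 0.125 for these genes and 0.135 for all rows. The plot of every gene on every array shows the 4 values behind each mean.

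**Figure D1:**
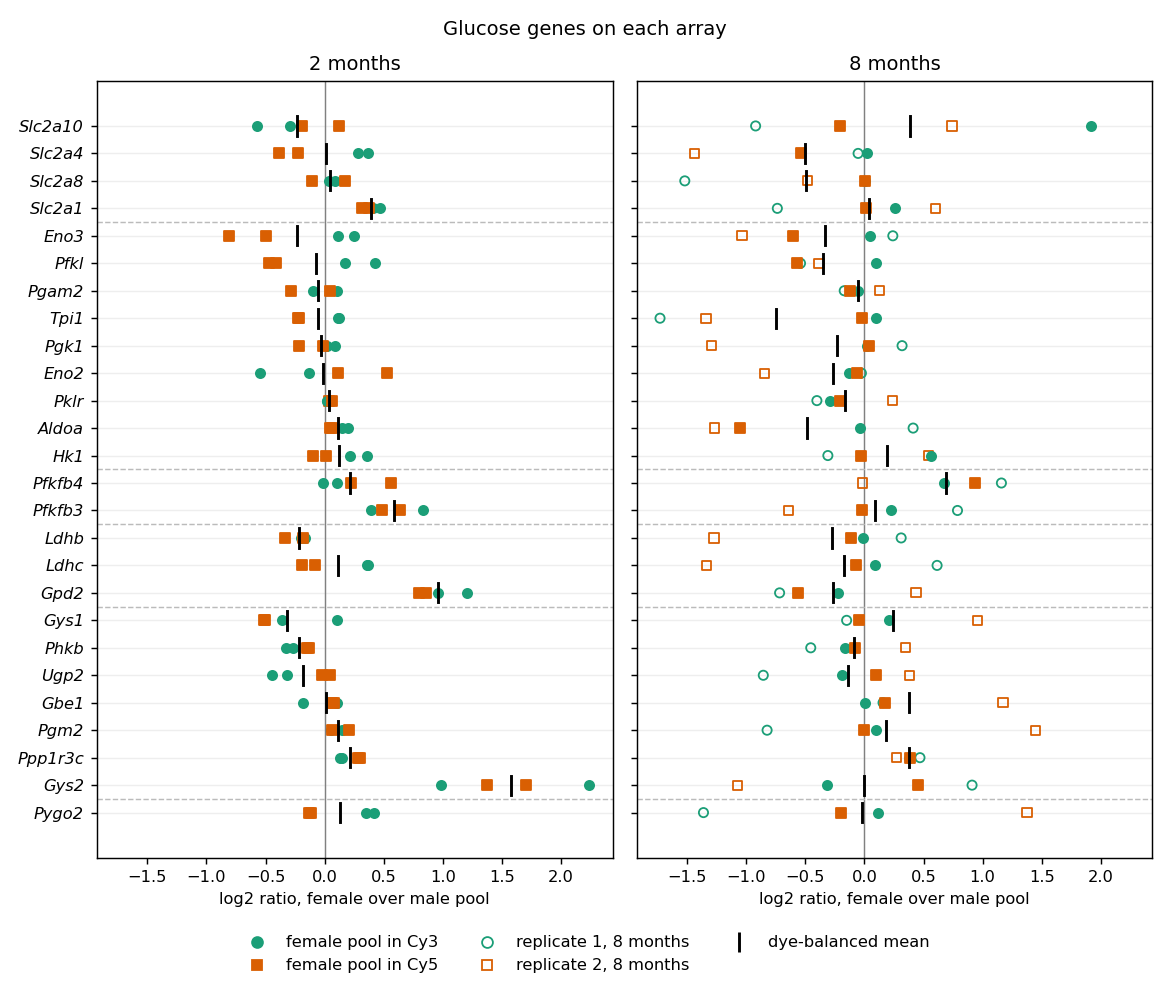
Log2 ratio of the female over the male pool (x axis) for the 26 tested genes (rows, grouped from top to bottom as hexose carriers, glycolytic chain, Pfkfb enzymes, lactate and glycerol phosphate dehydrogenases, glycogen genes, and Pygo2) at 2 and 8 months. Each symbol is 1 array (circles, female pool in Cy3; squares, female pool in Cy5; open symbols, replicates 1 and 2 at 8 months) and the black tick is the dye-balanced mean; Gys2 and Gpd2 lie to the right of 0 on all 4 arrays at 2 months, and the open symbols at 8 months spread widely.

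Among the hexose carriers, Slc2a1 was higher in the female pool at 2 months by less than the size rule asks, and Slc2a4 was near 0. Slc2a1 carries basal glucose uptake into most cells and was at 0.41, 0.31, 0.46 and 0.37 on replicates 1 to 4 at 2 months, a mean of 0.39 ± 0.064 (SD, n = 4 arrays), with all 4 arrays above 0 and close together. Of all rows, 5.66% had a higher value at 2 months. At 8 months its arrays were at -0.74, 0.60, 0.26 and 0.01, so that replicates 1 and 2 lay on opposite sides of 0 and replicates 3 and 4 gave 0.14. The insulin-responsive Slc2a4 was at 0.28, -0.23, 0.37 and -0.39 at 2 months, a mean of 0.0094 ± 0.37. Its sign followed the dye, positive with the female pool in Cy3 and negative in Cy5. At 8 months it was at -0.05, -1.44, 0.02 and -0.53, a mean of -0.50 ± 0.67, and at -0.26 on replicates 3 and 4, where the negative value again came from the array with the female pool in Cy5. Over both ages Slc2a1 was at 0.21 (SE 0.14, limma adjusted p = 0.70) and Slc2a4 at -0.25 (SE 0.16, limma adjusted p = 0.69), the latter at -0.12 with replicates 3 and 4 alone at 8 months.

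Slc2a8, an intracellular carrier, was at 0.08, -0.11, 0.04 and 0.17 at 2 months, a mean of 0.047. At 8 months replicate 1 was at -1.52 and replicate 2 at -0.48, against 0.0053 and 0.0031 on replicates 3 and 4. Its value over both ages, -0.23 (SE 0.17, limma adjusted p = 0.73), therefore rests on the arrays with the drift and was 0.026 without them. Slc2a10 was at -0.58, -0.19, -0.29 and 0.12 at 2 months, a mean of -0.23 ± 0.29, and at -0.92, 0.74, 1.91 and -0.21 at 8 months, where neither the first nor the second pair of arrays had 1 sign. Its 8-month means of 0.38 and, from replicates 3 and 4, 0.85 come from replicate 3. The fructose carrier Slc2a5 had too few values to be tested: all 4 arrays at 2 months were positive, at 0.20, 0.48, 1.54 and 1.08, while at 8 months it had values on replicates 1 and 3 alone, 0.59 and -1.37. Slc2a2, the carrier of liver and pancreatic beta cells, had a value on 1 array, -0.30 on replicate 1 at 2 months.

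The first steps of glycolysis showed no shared direction. Hk1, the hexokinase found in most tissues, was at 0.12 ± 0.20 at 2 months and 0.27 on replicates 3 and 4 at 8 months, where replicate 3 was at 0.56 and replicate 4 at -0.03. Pfkl, a phosphofructokinase subunit known from liver, was at -0.071 ± 0.44, with 0.17 and 0.43 on the arrays with the female pool in Cy3 and -0.42 and -0.47 in Cy5. Aldoa, the aldolase of muscle, was positive on all 4 arrays at 2 months by little, at 0.20, 0.06, 0.15 and 0.04. On the 8-month arrays it was at 0.41, -1.27, -0.04 and -1.05, a mean of -0.49 ± 0.80, and at -0.54 on replicates 3 and 4. Both 8-month arrays with the female pool in Cy5 were below -1, and neither with Cy3 was. On replicate 2 the running median at the Aldoa probe was itself -1.02, and Aldoa was at -0.25 relative to it. On replicate 4 it was at -1.07 relative to the running median, so that the low value rests on that array.

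The Pfkfb enzymes make and remove fructose-2,6-bisphosphate, the activator of phosphofructokinase; both measured members, Pfkfb3 and Pfkfb4, were positive at both ages. Pfkfb3 was at 0.39, 0.48, 0.83 and 0.64 at 2 months, a mean of 0.59 ± 0.19 (SD, n = 4 arrays), just past the size rule, and 2.83% of all rows were higher. It did not meet the rule without replicate 3 (0.48) or without replicate 4 (0.55) at 2 months. At 8 months its arrays were at 0.79, -0.64, 0.22 and -0.02, on both sides of 0, with 0.10 from replicates 3 and 4. Pfkfb4 was at 0.10, 0.23, -0.02 and 0.56 at 2 months, a mean of 0.22 ± 0.25. The 8-month arrays were at 1.16, -0.02, 0.67 and 0.94, a mean of 0.69 ± 0.51, so that 3 arrays were clearly positive and replicate 2 was at about 0. Replicate 2 had a running median of -0.15 at the position of the Pfkfb4 probe, and after subtraction of the running median all 4 arrays were positive, at 1.26, 0.14, 0.66 and 0.95. Over both ages Pfkfb4 was at 0.45 (SE 0.16, limma adjusted p = 0.43) and Pfkfb3 at 0.34 (SE 0.16, limma adjusted p = 0.56).

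The 4 promoter windows shown belong to Gpd2 and Pfkfb3, which met the size rule at 2 months, and to Ppp1r3c, a glycogen gene positive on all 8 arrays. They are RefSeq sequences of the assembly GRCm38.p6, 250 bases before to 50 after a gene's start, written along the gene's strand, and windows were found for 24 of the 26 genes by gene ID. Capitals mark ACGTG on either strand, the core of the sequence that hypoxia-inducible factors are known to bind; CACGTG, the E-box, holds that core on both strands.
Gpd2, chr2:57238132-57238431, plus strand: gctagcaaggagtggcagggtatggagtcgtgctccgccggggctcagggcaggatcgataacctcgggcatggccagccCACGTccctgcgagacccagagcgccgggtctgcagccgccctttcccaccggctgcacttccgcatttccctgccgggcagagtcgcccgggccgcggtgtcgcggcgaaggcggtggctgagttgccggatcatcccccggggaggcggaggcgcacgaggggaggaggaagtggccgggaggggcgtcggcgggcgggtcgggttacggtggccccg
Pfkfb3, chr2:11502041-11502340, minus strand: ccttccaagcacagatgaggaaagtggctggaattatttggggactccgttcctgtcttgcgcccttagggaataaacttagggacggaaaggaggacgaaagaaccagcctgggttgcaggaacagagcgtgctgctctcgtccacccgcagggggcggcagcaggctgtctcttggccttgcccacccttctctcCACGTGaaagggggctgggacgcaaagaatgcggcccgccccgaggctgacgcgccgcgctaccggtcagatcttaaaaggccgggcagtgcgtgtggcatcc
Pfkfb3, chr2:11553880-11554179, minus strand: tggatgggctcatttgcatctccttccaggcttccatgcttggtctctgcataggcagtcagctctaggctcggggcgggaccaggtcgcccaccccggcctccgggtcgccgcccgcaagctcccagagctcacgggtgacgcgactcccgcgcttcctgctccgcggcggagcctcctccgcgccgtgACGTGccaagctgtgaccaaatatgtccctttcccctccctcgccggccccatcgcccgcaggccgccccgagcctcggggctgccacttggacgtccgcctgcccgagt
Ppp1r3c, chr19:36736555-36736854, minus strand: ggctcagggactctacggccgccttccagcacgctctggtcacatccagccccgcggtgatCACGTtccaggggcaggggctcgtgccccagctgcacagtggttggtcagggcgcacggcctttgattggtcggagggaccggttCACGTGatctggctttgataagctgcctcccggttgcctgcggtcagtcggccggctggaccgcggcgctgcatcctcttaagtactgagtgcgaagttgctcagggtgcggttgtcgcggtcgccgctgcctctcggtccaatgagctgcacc

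The core ACGTG lay in 12 of the 34 windows of the tested genes (35.3%) and in 19.6% of all 32851 windows of this length. The windows of these genes were richer in G and C, with a median of 60.7% against 52.7% over all windows. CACGTG lay in 2 of the 34 windows (5.88%), those of Pfkfb3 and Ppp1r3c shown here, and in 7.15% of all windows. In the Pfkfb3 window that begins at 11502041 the E-box began 53 bases before the start site, and in the other the core ACGTG began 60 bases before it. The second Gpd2 window and the single Pfkfb4 window had no ACGTG and are not printed, so that every printed window holds it. Gys2, which also met the size rule at 2 months, had no window. These matches of letters describe short windows and do not show binding.

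In the later steps of glycolysis, ratios at 2 months were small and several depended on the dye. Tpi1, triose phosphate isomerase, was at 0.11, -0.22, 0.12 and -0.23 at 2 months. It had the lowest 8-month mean of the 26, -0.75 ± 0.92, but that came from replicates 1 and 2, at -1.73 and -1.34, while replicates 3 and 4 were at 0.10 and -0.02. On replicate 2 the running median at its position was itself -1.15; on replicate 1 it was 0.50, and Tpi1 was at -2.23 relative to it. Its value over both ages, -0.40 (SE 0.19, limma adjusted p = 0.55), was -0.0071 with replicates 3 and 4 alone at 8 months. Pgk1, phosphoglycerate kinase, which is X-linked, was at -0.031 ± 0.13 at 2 months and 0.029 on replicates 3 and 4 at 8 months. Pgam2, the muscle phosphoglycerate mutase, was at -0.059 ± 0.17 and -0.090, and its 2 probes moved apart on replicates 1 and 2 at 8 months (-0.92 and 0.57 for 1 probe, 0.58 and -0.31 for the other).

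Eno3, the enolase of muscle, was lower in the female pool at both ages on average and had the lowest p of the negative genes. On replicates 1 to 4 it was at 0.11, -0.50, 0.25 and -0.81 at 2 months, a mean of -0.24 ± 0.50, and at 0.24, -1.04, 0.05 and -0.60 at 8 months, a mean of -0.34 ± 0.59. All 4 arrays with the female pool in Cy5 were negative and all 4 with Cy3 were positive. Over both ages it was at -0.29 (SE 0.13, limma adjusted p = 0.51). Eno2, the enolase of neurons, had the opposite dye pattern at 2 months, -0.13 and -0.55 in Cy3 and 0.11 and 0.53 in Cy5, with a mean of -0.011, and was at -0.097 on replicates 3 and 4 at 8 months. Pklr, the pyruvate kinase of liver and red cells, was at 0.035 ± 0.022 at 2 months and -0.25 on replicates 3 and 4 at 8 months, where both arrays were negative.

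Of the dehydrogenases that use the products of glycolysis, Gpd2 was higher in the female pool at 2 months, and Ldhb was below 0 by less than the size rule asks. Gpd2 passes the electrons of glycerol-3-phosphate to the respiratory chain and is abundant in brown fat. It was at 0.96, 0.86, 1.20 and 0.79 at 2 months, a mean of 0.95 ± 0.18 (SD, n = 4 arrays), with 1.01% of all rows higher. At 8 months it was at -0.72, 0.44, -0.23 and -0.57, a mean of -0.27 ± 0.51, and at -0.40 on replicates 3 and 4, which were both negative. No 8-month array reached the lowest 2-month array. Ldhb, the lactate dehydrogenase subunit that predominates in heart, was at -0.20, -0.33, -0.17 and -0.19 at 2 months, a mean of -0.22 ± 0.076, all 4 arrays below 0. The 8-month arrays were at 0.31, -1.27, -0.02 and -0.12, with replicates 1 and 2 far apart on either side of 0. Over both ages Ldhb was at -0.25 (SE 0.12, limma adjusted p = 0.58), and at -0.14 with replicates 3 and 4 alone at 8 months. Ldhc, the subunit of testis, was at 0.12 ± 0.29 at 2 months and 0.0098 on replicates 3 and 4 at 8 months. Hk2, Pfkm, Gapdh, Pkm, Ldha and Pygm, the main isoforms of heart or muscle at their steps, were not analysed here.

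Glycogen synthase showed its 2 isoforms apart at 2 months: Gys2 was higher in the female pool and Gys1, the isoform of muscle and heart, was lower by less than the size rule asks. Gys2 was at 2.24, 1.37, 0.98 and 1.70 on replicates 1 to 4 at 2 months, a mean of 1.57 ± 0.53 (SD, n = 4 arrays), and 0.474% of all rows were higher. The 8-month arrays were at 0.91, -1.07, -0.31 and 0.45, a mean of -0.0064 ± 0.87, and at 0.069 on replicates 3 and 4. The highest 8-month array lay below the lowest 2-month array. Over both ages Gys2 was at 0.78 (SE 0.35, limma adjusted p = 0.52) and Gpd2 at 0.34 (SE 0.28, limma adjusted p = 0.76). Gys1 was at -0.36, -0.51, 0.10 and -0.50 at 2 months, a mean of -0.32 ± 0.29, with replicate 3 alone above 0. At 8 months it was at -0.15, 0.95, 0.21 and -0.05, and at 0.079 on replicates 3 and 4.

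Ppp1r3c, the subunit that targets protein phosphatase 1 to glycogen, was the single member positive on all 8 arrays. It was at 0.14, 0.28, 0.13 and 0.30 at 2 months, a mean of 0.21 ± 0.089, and at 0.47, 0.27, 0.38 and 0.38 at 8 months, a mean of 0.38 ± 0.080. The difference is below 1.5-fold at both ages, and over both ages it was 0.30 (SE 0.13, limma adjusted p = 0.50). How often a row outside these genes stays positive throughout was not counted, so being positive on all 8 does not by itself set Ppp1r3c apart. Phkb, the beta subunit of phosphorylase kinase, was negative on all 4 arrays at 2 months, at -0.27, -0.14, -0.33 and -0.15, and was at -0.12 on replicates 3 and 4 at 8 months. Gbe1, the glycogen branching enzyme, was at 0.015 ± 0.13 and 0.086. Ugp2, which makes UDP-glucose, was at -0.18 ± 0.23 and -0.046, and Pgm2, a phosphoglucomutase, at 0.12 ± 0.072 and 0.047. Pygo2, the Wnt pathway gene, was at 0.13 ± 0.30 and -0.041.

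At 8 months these genes were most spread on the arrays with the drift. Their probes sat where the running median of all rows was between -0.99 and 0.59 on replicate 1 and between -1.16 and 1.22 on replicate 2, against -0.039 to 0.088 on replicate 3 and -0.055 to 0.067 on replicate 4. For 24 of the 26 genes the first pair of arrays lay further apart than the second, as for 88.1% of all rows with values on these 4 arrays. The number with 1 sign on all 4 arrays at 8 months was 3 of 26 (Eno2, Gbe1 and Ppp1r3c), against 10.6% of all rows, and rose to 10 of 26 when the running median was subtracted, against 19.5% of all rows. Of the 10, Aldoa, Gpd2, Ldhb, Pgam2, Phkb and Pklr were negative, and Hk1, Pfkfb3, Pfkfb4 and Ppp1r3c were positive.

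**Figure D2:**
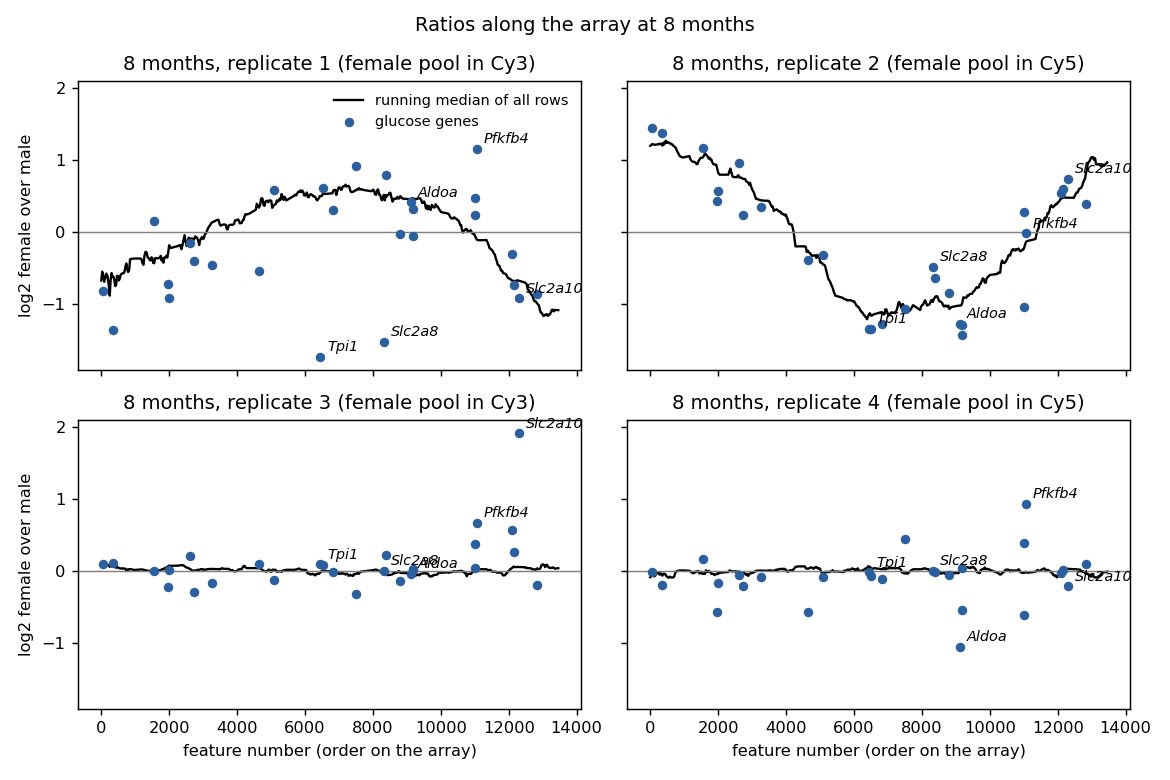
Log2 ratio of the female over the male pool against feature number, the order of probes on the array, for the 4 arrays at 8 months. The line is the running median of all rows and the points are the probes of the 26 tested genes; on replicates 1 and 2 most points follow the curved line, with Tpi1 and Slc2a8 far below it on replicate 1, while on replicates 3 and 4 the line is flat.

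The sign of a ratio changed with the dye about as often for these genes as over the whole array. At 2 months the 2 dye orientations disagreed in sign for 12 of the 26, against 44.4% of all rows. The ratio was positive with the female pool in Cy3 and negative in Cy5 for 9 of the 26 (34.6%), against 22.4% of all rows. Of these 9, 6 belong to the glycolytic chain: Eno3, Hk1, Pfkl, Pgam2, Pgk1 and Tpi1. They are 6 of its 9 tested genes (66.7%). The other 3 of the 12, Eno2, Gbe1 and Ugp2, ran the other way (11.5% of the 26, against 22% of all rows). For Eno3, Pfkl and Slc2a4 the Cy5 minus Cy3 difference, halved, was -0.42, -0.37 and -0.32, larger than the dye-balanced mean of each. In Cy3 these 3 genes were at 0.18, 0.30 and 0.33 at 2 months. At 8 months, on replicates 3 and 4, they were near 0 in Cy3 (0.05, 0.10 and 0.02) and again negative in Cy5 (-0.60, -0.57 and -0.53). The part of the dye in these ratios was not tested. Gys2, Gpd2 and Pfkfb3 were high in both orientations at 2 months: 1.61 in Cy3 and 1.54 in Cy5 for Gys2, 1.08 and 0.83 for Gpd2, and 0.61 and 0.56 for Pfkfb3. On replicates 3 and 4 at 8 months the orientations disagreed in sign for 13 of 26, against 51.9% of all rows.

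**Figure D3:**
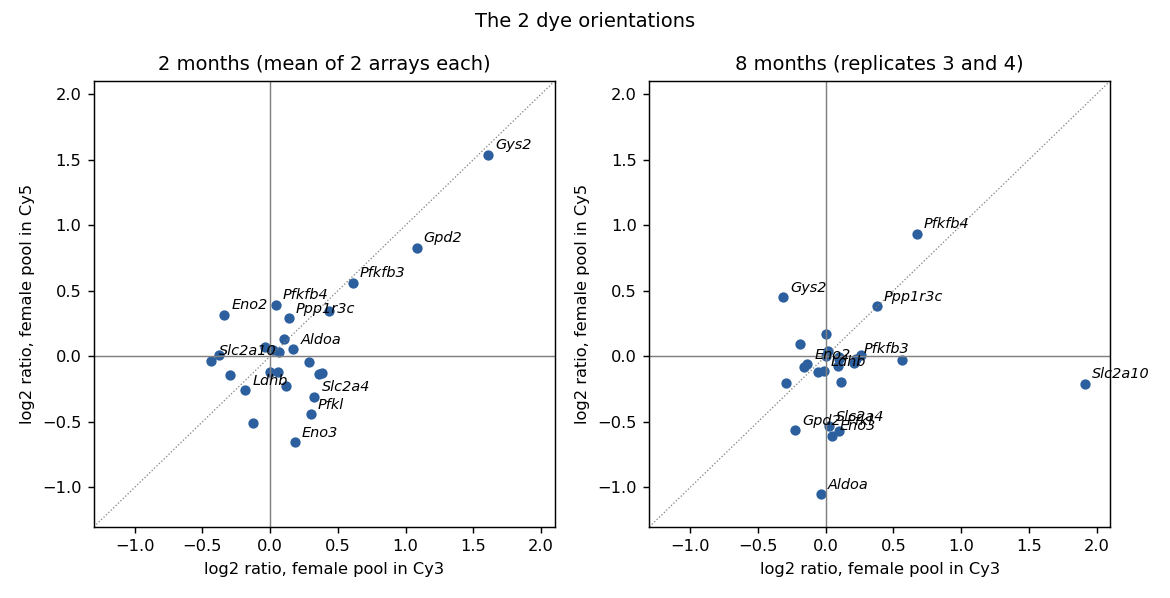
Ratios (log2, female over male pool) of the 26 tested genes with the female pool in Cy3 (x axis) against Cy5 (y axis), at 2 months (left, means of 2 arrays each) and on replicates 3 and 4 at 8 months (right). Points on the dotted diagonal have equal values in both orientations, as Gys2, Gpd2 and Pfkfb3 nearly do at 2 months and Pfkfb4 and Ppp1r3c at 8 months; Eno3, Pfkl and Slc2a4 lie below 0 in Cy5 at both ages.

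Between the ages, 2 of the 26 genes differed by 1.5-fold or more with separate ranges of arrays: Gys2 by -1.58 and Gpd2 by -1.22 (8 minus 2 months). Lower ratios at 8 months by this rule were found for 1.72% of all rows and higher ones for 1.57%, the latter with 0 of the 26 (3.29% in either direction). With replicates 3 and 4 alone at 8 months 4 of 26 met it, against 6.03% of all rows (2.71% lower and 3.32% higher). They were Gys2 at -1.50, Gpd2 at -1.35, Aldoa at -0.66 and Pfkfb4 at 0.59. The Aldoa value rests on replicate 4, at -1.05, since replicate 3 was at -0.04 and the lowest 2-month array at 0.04. Slc2a10 and Gys1 also had higher means at 8 months, by 0.62 and 0.56, with arrays that overlapped. With 1 pair of pools per age, the difference between the ages has no test. On replicates 3 and 4, 17 of 26 genes had the sign they had at 2 months (65.4%), against 57.5% of all rows.

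**Figure D4:**
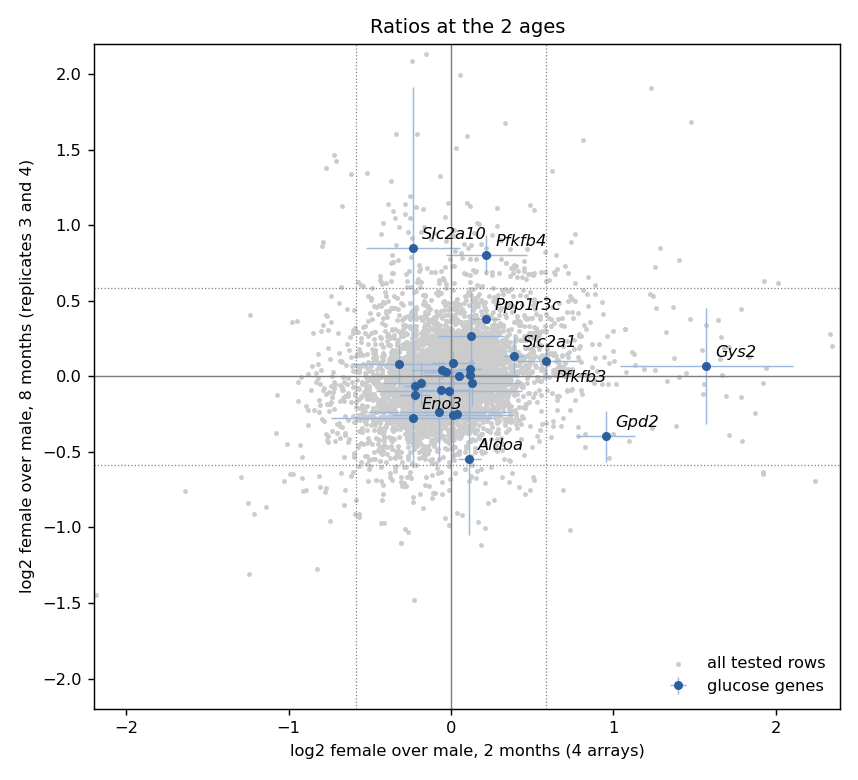
Mean log2 ratio of the female over the male pool at 2 months (x axis, 4 arrays) against 8 months (y axis, replicates 3 and 4) for the 26 tested genes (blue) over all tested rows (grey; rows beyond the axes are not drawn). Horizontal bars are the SD of 4 arrays, vertical bars span the 2 arrays, and dotted lines mark 1.5-fold; Gys2, Gpd2 and Pfkfb3 lie past the right line and Pfkfb4 above the upper one, and the bar of Slc2a10 spans 0.

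Genes around the pathway were read from fixed lists, and none of their tested members was called over both ages by limma. At the entry of pyruvate into mitochondria, 7 of 13 listed genes were tested; Pdk4, the kinase that restrains pyruvate dehydrogenase, was lower by the size rule at both ages, with means of -1.64 ± 0.72 and -0.75 ± 0.12 (limma adjusted p = 0.23 over both ages), and the other 6 did not meet it. Pdk4 was at -1.08, -2.16, -0.96 and -2.35 on the 2-month arrays and at -0.61, -0.89, -0.69 and -0.82 on the 8-month ones, all below 0. Of 3 tested pentose phosphate genes, Tkt, transketolase, met the rule at 2 months at 0.83 ± 0.51, with arrays at 1.20, 0.66, 1.26 and 0.18. Its 8-month arrays were at 0.46, -1.95, -0.20 and -0.55, a mean of -0.56, and at -0.38 on replicates 3 and 4. Of 3 gluconeogenesis genes, Pcx, pyruvate carboxylase, which also feeds fat synthesis, met it at 2 months at 0.93 ± 0.32, with arrays at 1.24, 0.72, 1.17 and 0.59. Its 8-month arrays were at -0.56, 1.20, 0.83 and 0.16, a mean of 0.41, and at 0.49 on replicates 3 and 4. None of the 4 lactate and pyruvate carriers, the 3 other glycogen genes, the 10 genes of insulin and AMPK signalling or the 6 hypoxia and glucose sensing genes met it. Of each list, the gene farthest from 0 over both ages was Bsg at -0.20, Gaa, the lysosomal glucosidase, at -0.32, Pik3ca at -0.31 and Vegfa at -0.41. With replicates 3 and 4 alone at 8 months these were at -0.081, 0.015, -0.30 and -0.25, so that the Gaa value rests on the arrays with the drift.

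Most tested markers of fat, thymus and lung were higher in the female pool at 2 months, beside Gys2, Gpd2 and Pfkfb3. Of 6 tested adipocyte and brown fat markers, 4 met the size rule at 2 months, all higher in the female pool, Ucp1 at 2.99, Fasn at 1.88, Scd1 at 1.79 and Cidec at 1.71, while Fabp4 was at 0.24 and Elovl3 at -0.07. At 8 months, on replicates 3 and 4, 0 of the 6 met it, with values of -0.43 to 0.39. Of 8 thymus and T cell markers 7 were higher by the rule at 2 months, with a median of 2.79, and 1 at 8 months on replicates 3 and 4. Of 3 lung markers 3 met it at 2 months, at 0.66 to 1.76. Of these, Sftpc was at 1.76 at 2 months and higher at 8 months, at 3.12 and, on replicates 3 and 4, 3.89, where Gys2 was at 0.069 and Gpd2 at -0.40; the other 2 were at 0.11 and 0.31 on those arrays. The liver markers were at 0.17 to 0.93 (3 tested, 1 higher by the rule, Cyp2e1). Skeletal muscle markers were at -0.58 to 0.22 (9 tested, 0 by the rule) and macrophage markers at -0.80 to -0.25 (5 tested, 0 by the rule). Endothelial markers were at -0.51 to 0.05 (6 tested) and fibroblast and matrix markers at -0.30 to -0.12 (5 tested). The 2 tested atrial markers were at 0.23 and 0.30, and none of these 3 lists had a marker past the rule at 2 months. The part of these tissues in the values of Gys2, Gpd2 and Pfkfb3 was not tested, and in pooled tissue fewer cells of a type and less RNA per cell cannot be told apart. On replicates 3 and 4 at 8 months the 3 tested erythroid markers were higher by the rule, at 0.77 to 0.88. Pfkfb4 was at 0.80 on these arrays. On all 4 arrays of 8 months 1 of the 3 markers met the rule, and at 2 months they were at -0.33 to 0.47. Of 5 fibroblast and matrix markers 1 also met it on replicates 3 and 4, where the list was at -0.10 to 0.69. The part of these cells in the Pfkfb4 value was not tested either.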

How the data were processed

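Total RNA from 4 pools was compared on 8 two-colour arrays, 4 per age. The deposited values are log10 ratios of the 2 channels, for which the labels name image analysis in Agilent Feature Extraction 7.1.1. How the authors normalized them further is not stated in the material at hand. The sign was read as Cy5 over Cy3 and turned to female over male by the labelled dyes; so turned, Xist was at 2.44 and 3.45 and the Y-linked Kdm5d at -2.43 and -2.88 (log2, 2 and 8 months). An exact 0 (6.38 to 13.9% of an array) counted as no measurement. Values were converted to log2, rows of 1 symbol were averaged, and symbols came from GEO's platform table, brought up to date with RefSeq (GRCm38.p6; 6600 of 6671 single-symbol rows matched by gene ID). A row was tested with values on at least 3 of the 4 arrays of each age in both dye orientations (7812 rows; the table has 9607).

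The 2 age means, 1 per pair of pools, entered limma 3.58.1 under R 4.3.3 with a two-sided moderated test and Benjamini-Hochberg adjustment over all rows; a call needed an adjusted p below 0.05. This leaves 1 residual degree of freedom. The steps were also run on simulated arrays with the same change at both ages and no drift or dye effect. That run therefore does not show how the steps handle drift, dye or a change at 1 age only. The number of pools, 1 per sex and age, and the number of arrays limit the precision. Values on every array were given for genes past the size rule and the 5 per direction with the largest value over both ages. They were also given for the 3 per direction with the largest age difference, the lowest p in each direction, and fixed heart isoforms. From each pathway list they were given for genes past the size rule. Where a list had none, the gene farthest from 0 over both ages was given without its array values. Other genes named with values were chosen after their values were seen. The genes and lists were chosen with earlier results of these data known. The alternatives tried are given in the closing section.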

Additional observations from a re-analysis of the deposited data

Results flagged for a closer look

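Of 52 groups of 4 arrays (26 genes at 2 ages), 3 had 1 array whose gap to the others exceeded Dixon's 95% critical value; chance gives about 1 group in 20. Eno2 at 8 months was at -0.84 on replicate 2, against -0.13 to -0.026 on the others. Gbe1 at 8 months was at 1.17 on replicate 2, against 0.00088 to 0.17. Replicate 2 at 8 months is the array with the widest drift, and its running median was -1.07 at the Eno2 probe and 1.04 at the Gbe1 probe. Gbe1 at 2 months was at -0.18 on replicate 1, against 0.063 to 0.10.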

How the results depend on the processing

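No glucose gene was called over both ages under any of the alternatives run. The count of all rows called was 7, and it was 1 with replicates 3 and 4 alone at 8 months and 1 with the running median subtracted, 3 with arrays scaled to 1 spread, 0 with exact zeros kept, 4 with no filter, 16 with values on all 8 arrays, and 4 to 105 with 1 array left out (4 without 2-month replicate 4, 88 without 8-month replicate 1 and 105 without 8-month replicate 4). At 2 months the size rule held for 3 genes, 1 with 2-fold in place of 1.5-fold (Gys2), and 2 to 3 with 1 array left out. It held for 4, Slc2a5 added, with exact zeros kept or with no filter. At 8 months it held for 0 genes, but for 1 (Pfkfb4) with replicates 3 and 4 alone and 1 (Pfkfb4) with the running median subtracted. With 1 array left out it held for 0 to 1, a different gene each time at 8 months: Aldoa without replicate 1, Pfkfb4 without 2, Tpi1 without 3 and Gbe1 without 4. For the age difference it held for 2 genes, 4 with replicates 3 and 4 alone, and 2 to 4 with 1 array left out; Gys2 and Gpd2 were in every set at 1.5-fold. With replicates 3 and 4 alone the sign over both ages turned for Slc2a8 (0.026) and Ldhc (-0.031 to 0.062), and with the running median subtracted for Ldhc (0.045) and Pygo2 (0.056 to -0.016). The remaining alternatives were read gene by gene for the glucose genes given on every array, and with 1 array left out the sign turned for Gys1 (-0.16 to 0.087) and Slc2a10 (-0.28 to 0.43). With arrays scaled to 1 spread, Gys2 at 2 months was at 2.13, Gpd2 at 1.27, Slc2a1 at 0.52 and Ldhb at -0.30. All rows past the size rule at 2 months were 326, 585 with arrays scaled to 1 spread and 87 at 2-fold. At 8 months they were 233, 153 scaled, 383 with no filter, 67 at 2-fold and up to 533 with 1 array left out, and for the age difference 257, 470 with replicates 3 and 4 alone, 123 at 2-fold and up to 490 with 1 array left out. The cause of these changes was not tested. No paired analysis was possible because the replicate numbers name technical arrays of 1 pair of pools per age, and the difference between the ages has no test.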
